A study of Mus musculus with 4 samples.

Results

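The genes described here are 33 protein-coding genes. For the most part their mRNAs are translated at the endoplasmic reticulum and their products are lysosomal or secreted proteins of macrophages. The 33 genes were listed by name, but with earlier results of these data known. Every transcript that the GENCODE M21 annotation assigns to 1 of the 33 symbols was taken, and transcripts were summed per gene. The 33 genes are part of 21805 protein-coding genes in the count table, and their 163 transcripts, of which 124 had a count, are part of 141239 features. The study measured small RNA in RAW264.7 cells, a mouse macrophage-like line, and in the extracellular vesicles that these cells release. It compared a non-silencing hairpin (shNS) with a hairpin against Dis3l2 (shDis3l2), a 3′ to 5′ exoribonuclease of the cytoplasm. There were 4 libraries, 1 for each combination of compartment and hairpin: cells with shNS, cells with shDis3l2, vesicles with shNS and vesicles with shDis3l2. In every group the cells received doxycycline at 1 µg/mL for 3 days and then for a 24 h collection in medium whose serum had been depleted of vesicles. Vesicles were taken from the density fractions of a sucrose gradient and treated with micrococcal nuclease before RNA extraction, while cellular RNA was not. Each hairpin is represented by 1 cell line in 1 collection, so no spread between replicates can be given for any value below.

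Lysosomal hydrolases, their activators and the membrane proteins of the lysosome carry a signal peptide or a membrane anchor, are made by ribosomes bound to the endoplasmic reticulum, and reach the lysosome through the Golgi apparatus. Macrophages use these proteins to degrade what they take up, and they also secrete several of them, lysozyme in particular. Tetraspanins and lysosome-associated membrane proteins of late endosomes are found on some vesicles that cells release. The libraries were made with a kit for short RNAs, so a count on such a gene is a short piece assigned to its mRNA and not a whole transcript.

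The libraries held from 17612856 to 19741041 estimated counts, of which 7.03% and 8.92% were on protein-coding genes in the cells with shNS and shDis3l2. The shares of the vesicle libraries were 19.8% and 26%. The 10 leading genes supplied 44.1% and 44.9% of the protein-coding counts of the cells and 14.4% and 11% of those of the vesicles. Genes with an annotated small RNA inside an exon held 31.3% and 30.2% of the cells' protein-coding counts, against 7.50% and 5.41% of the vesicles'; none of the 33 genes is of that kind. In cells, counts on the targeted gene were higher under its label: Dis3l2 had 41 counts with shNS and 13232 counts in the library labelled shDis3l2. The vesicle libraries had 1713 and 1894 counts. Whether these short pieces came from Dis3l2 mRNA or from the hairpin against it was not tested. They therefore do not show if the mRNA was lowered. The libraries are therefore called labelled shDis3l2 throughout. Of 12 macrophage identity markers, 11 had at least 10 counts in each cell library, with 875 and 784 counts summed over the 12. Csf1r, Cd68 and Lyz2, which are also among the 33 genes, gave 106, 63 and 223 of the 875 counts. They gave 184, 48 and 122 of the 784. In the cell libraries at least 10 counts were also reached by 5 and 4 of 7 fibroblast, 3 and 2 of 8 lymphocyte and 1 and 0 of 7 erythroid markers. No epithelial or neutrophil marker reached 10 in cells. Markers of other cell types were low, with 86 to 295 counts summed over 7 fibroblast markers, 54 to 86 over 8 lymphocyte markers, 14 to 176 over 7 erythroid markers with Hba-a1 and Hbb-bt at 0 in all libraries, 9 to 29 over 6 epithelial markers and 15 to 19 over 8 neutrophil markers with Camp at 0. Their part in the results was not tested.

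The 33 genes supplied a small share of the mRNA pieces, and a larger share in vesicles than in cells. They held 2058 counts in cells with shNS, which is 0.148% of protein-coding counts (95% exact binomial interval 0.142 to 0.155), and 1689 counts in cells labelled shDis3l2, which is 0.103% (0.0979 to 0.108). In vesicles they held 13150 counts with shNS, which is 0.365% (0.359 to 0.371), and 10882 counts in the library labelled shDis3l2, which is 0.238% (0.233 to 0.242). Within each compartment the library labelled shDis3l2 was the lower of the pair. In such bulk RNA, fewer cells or vesicles with an mRNA and less of it in each cannot be told apart. Intervals cover counting error only, and they may be too narrow because no source at hand says if duplicate reads of a molecule were merged. As counts per 1000000 of all counts, the sums were 104 and 91.7 in cells and 723 and 618 in vesicles. Below, CPM stands for counts per 1000000 protein-coding counts unless all counts are named. At least 100 counts were reached by 6 and 3 of the 33 genes in the cell libraries and by 23 in each vesicle library, so single genes could be followed better in vesicles.

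Among the proteases, cathepsin C (Ctsc), a dipeptidyl peptidase that activates granule serine proteases, stood at the head of the set through its vesicle values. It had 17.3 CPM in cells with shNS, 31.0 in cells labelled shDis3l2, 745 in vesicles with shNS and 492 in vesicles labelled shDis3l2. Vesicle and cell values do not overlap, and the low cell values rest on 24 and 51 counts and the vesicle values on 2684 and 2252. Cathepsin B (Ctsb), a cysteine protease, had 113 and 58.4 CPM in cells and 265 and 93.1 in vesicles, with the shNS library the higher of both pairs. Cathepsin D (Ctsd), the main aspartic protease of lysosomes, had 40.4 and 27.4 in cells, with 163 and 53.5 in vesicles. Cathepsin A (Ctsa), a serine carboxypeptidase that also protects other hydrolases, had 44.7 and 46.9 in cells and 104 and 63.6 in vesicles. For these 4 proteases the vesicle library with shNS was the highest of the 4 libraries.

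Legumain (Lgmn), an asparaginyl endopeptidase, and cathepsin L (Ctsl) were highest in cells with shNS instead. Lgmn had 207 CPM there, 48.7 in cells labelled shDis3l2, and 64.1 and 33.7 in the vesicles. Ctsl had 120.4 and 57.8 in cells and 51.1 and 31.0 in vesicles. Cathepsin Z (Ctsz), a carboxypeptidase, had 20.2 and 26.8 in cells and 92.2 and 74.1 in vesicles, and cathepsin S (Ctss), which processes the invariant chain for antigen presentation, had 42.5 and 24.3 in cells and 80.3 and 40.0 in vesicles. Cathepsin K (Ctsk), the collagen-degrading protease of osteoclasts, and cathepsin H (Ctsh) were near the limit of counting, with 3 to 11 and 0 to 10 counts per library. The 0 of Ctsh in cells labelled shDis3l2 allows up to 1.83 CPM.

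Of the 10 hydrolases of sugars, lipids and phosphates, acid lipase (Lipa), which frees cholesterol and fatty acids from lipoproteins, was the most counted. It had 94.4 CPM in cells with shNS, 97.4 in cells labelled shDis3l2, 194 in vesicles with shNS and 167 in vesicles labelled shDis3l2. Beta-glucuronidase (Gusb) had 39.6 and 21.9 in cells, with 125 and 102 in vesicles. Alpha-mannosidase (Man2b1) had 60.5 and 36.5 in cells and 85.2 and 162 in vesicles. Lipa and Gusb were highest in vesicles with shNS, whereas Man2b1 was, with the receptor Csf1r, among the 2 of the 10 most counted members that were highest in the vesicles labelled shDis3l2. Hexosaminidase A (Hexa), which degrades gangliosides, had 28.8 and 35.9 in cells and 77.8 and 52.0 in vesicles. Acid ceramidase (Asah1), sialidase (Neu1), alpha-glucosidase (Gaa), beta-galactosidase (Glb1) and the acid phosphatases Acp2 and Acp5 reached at most 22.5 CPM in any library. Acp5, the tartrate-resistant phosphatase used as an osteoclast marker, had 3 or 4 counts per library.

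The activators and lipid carriers were of middle rank. Prosaposin (Psap), the precursor of the saposins that present lipids to hydrolases, had 53.3 and 39.6 CPM in cells and 167 and 87.6 in vesicles. Progranulin (Grn) and the cholesterol carriers Npc1 and Npc2 had 18.7 to 41.1 in cells and 23.2 to 63.3 in vesicles. Of the membrane proteins, Lamp1, a heavily glycosylated protein of the lysosomal membrane, had 41.8 and 50.5 in cells and 133 and 62.9 in vesicles. Lamp2, a receptor of chaperone-mediated autophagy, had 31.0 and 18.9 in cells, below its 60.8 and 40.2 in vesicles. In both genes the vesicle values were above the cell values, but only for Lamp1 was the cell library labelled shDis3l2 the higher of its pair. The tetraspanin Cd63 had 38.9 and 7.30 in cells and 40.8 and 23.8 in vesicles, with only 12 counts behind the second value. The scavenger receptor-like protein Cd68, a macrophage marker, had 45.4 and 29.2 in cells, with 71.1 and 33.9 in vesicles, so that its cells with shNS stood above the vesicles labelled shDis3l2. Scarb2, a receptor that carries glucocerebrosidase to lysosomes, had 27.4 and 26.2 in cells, below 65.5 and 42.6 in vesicles. The calcium channel Mcoln1 had lower values in vesicles than in cells, at 9.62 to 13.9 CPM against 14.6 to 21.6. Among the genes grouped under the lysosomal membrane only Atp6v0d2 shared this. The proton pump subunit Atp6v0d2, found in osteoclasts and macrophages, had 4 to 8 counts per library.

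Lysozyme (Lyz2), a secreted enzyme that cuts bacterial cell walls, and the receptor Csf1r, which binds the growth factor that keeps macrophages alive, complete the set. Lyz2 had 161 CPM in cells with shNS, 74.2 in cells labelled shDis3l2, 600.1 in vesicles with shNS and 298 in vesicles labelled shDis3l2. Its paralog Lyz1 had 0 to 4 counts per library as assigned by Salmon, and how pieces that fit both copies were shared out was not tested. Csf1r had 76.4 and 112 in cells, with 227 and 241 in vesicles, so that shNS was the lower of both pairs. Levels of different genes can be compared only per length: in CPM per kilobase, Lyz2 was the highest member in vesicles, at 456 and 227, ahead of Ctsc at 233 and 154. In cells with shNS, Lgmn, at 146 on this scale, was above Lyz2, at 122. Of the Lgmn counts there, however, 264 were on a form with an intron left in place and only 23.3 on coding forms. The length used for a gene was weighted over the counts of all libraries, so this order does not rank the coding mRNAs.

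**Figure D1:**
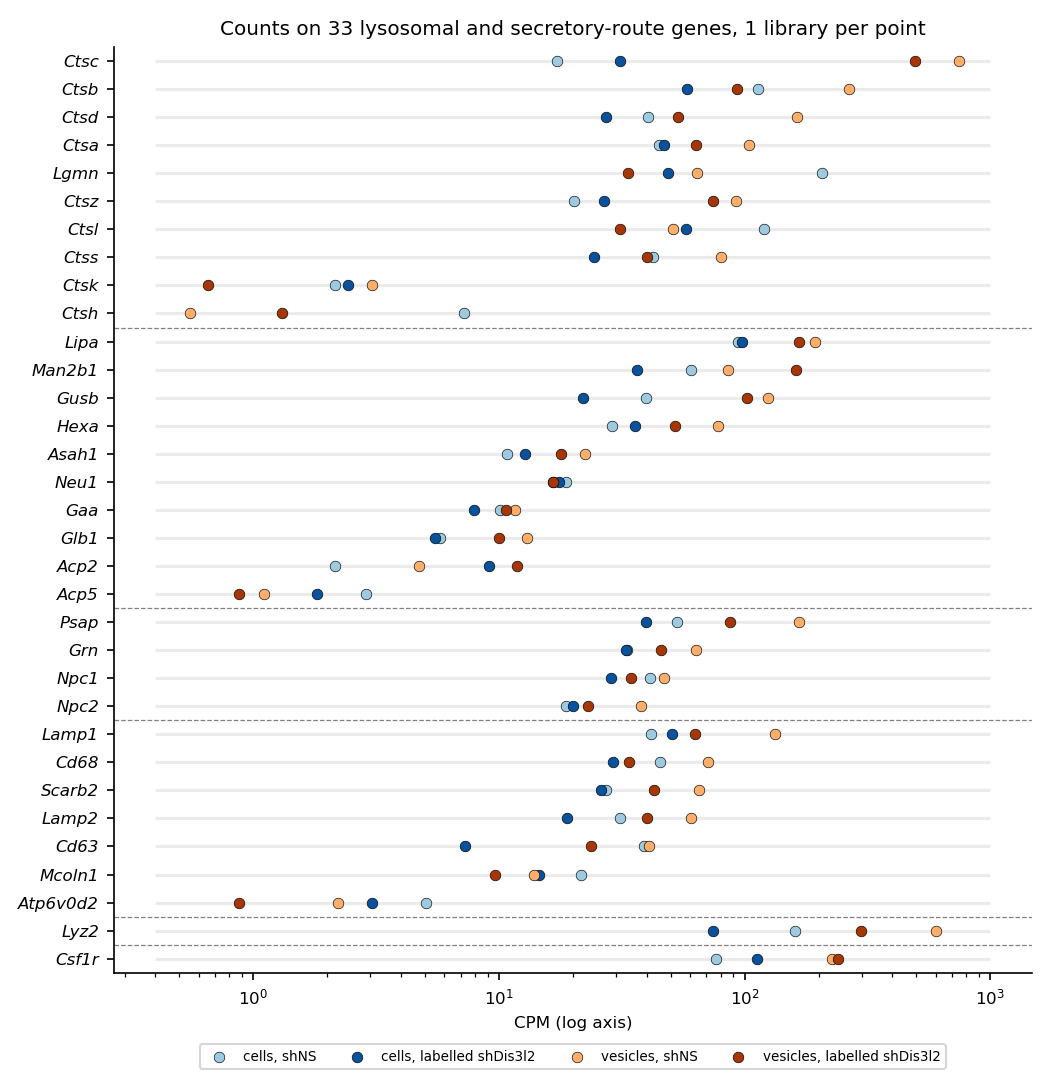
CPM (log axis; counts per 1000000 protein-coding counts) of the 33 genes, ordered by role from proteases at the top to the receptor Csf1r at the bottom, with dashed lines between roles; each point is 1 library. Ctsc and Lyz2 reach 745 and 600.1 in vesicles with shNS, while Ctsk, Ctsh, Acp5 and Atp6v0d2 lie near the limit of counting; the 0 of Ctsh in cells labelled shDis3l2 has no point on a log axis.

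To ask which of these mRNAs gave more pieces in vesicles than in cells, the compartments were compared within each hairpin. With shNS, most measured members had a larger share of protein-coding counts in vesicles, led by Ctsc, Ctsz and Ctsd, and Lgmn and Ctsl had a smaller share. Summed over the 33 genes the share was 2.46-fold higher (95% interval 2.35 to 2.58), and 1.98-fold higher without Ctsc. A member was listed as higher or lower when it was at least 2-fold apart with an exact interval that excluded no difference, and when it had at least 100 counts over the 2 libraries. Of 23 members that had these counts, 13 were higher and 2 were lower, beside 41.9% and 13.7% of the 5548 protein-coding genes measured in the same way. The median log2 ratio was 1.21 for the members and 0.77 for all genes. Vesicles were treated with nuclease and cells were not, so the compartment and that treatment cannot be told apart. Since a member could reach 100 counts through the vesicle library alone, the count over measured members carries no weight of its own.

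Ctsc had a log2 ratio of 5.40 (95% interval 4.85 to 6.07), which is 42.2-fold, and only 2.22% of the measured genes lay above it. Ctsz was 4.5-fold, Ctsd 4.01-fold and Lyz2 3.73-fold higher, with log2 ratios of 2.17, 2.00 and 1.9. Lamp1 was 3.16-fold, Gusb 3.13-fold, Psap 3.12-fold and Csf1r 2.96-fold higher. Hexa was 2.67-fold, Scarb2 2.37-fold, Ctsb 2.34-fold, Ctsa 2.32-fold and Lipa 2.04-fold higher. These folds were thus found among proteases, other hydrolases, an activator, membrane proteins and both of the members outside lysosomes. Lgmn was 3.22-fold lower with a log2 ratio of -1.69 (-1.95 to -1.43), and Ctsl was 2.36-fold lower with a log2 ratio of -1.24 (-1.55 to -0.93). The other 8 measured members, Npc2, Lamp2, Grn, Ctss, Cd68, Man2b1, Npc1 and Cd63, had log2 ratios from 0.06 to 1.00. Cd63, although a marker protein of exosomes, was at 0.06 (-0.39 to 0.55).

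The libraries labelled shDis3l2 were compared between the compartments in the same way. Of 25 measured members 9 were higher in vesicles and 0 were lower, beside 48.6% and 12% of 6004 genes. Here too a member could reach 100 counts through the vesicle library alone, so this count carries no weight of its own. The median log2 ratio was 0.69 for the members and 0.95 for all genes, so the members stood 0.26 below the median gene here and 0.44 above it with shNS. The side of the median gene on which they stood moved with the minimum: with 20 counts or 1 count in place of 100 they stood 0.31 and 0.57 above it here, and with shNS a minimum of 1000 left 3 members, 0.85 below it. The summed share was 2.31-fold higher (2.20 to 2.44), and 1.89-fold higher without Ctsc. Ctsc was 15.7-fold higher with a log2 ratio of 3.97 (3.59 to 4.42), Gusb 4.60-fold, Man2b1 4.40-fold, Lyz2 4.00-fold and Cd63 3.15-fold. The Cd63 value rests on 12 counts in cells. Ctsz was 2.74-fold, Psap 2.20-fold, Csf1r 2.15-fold and Lamp2 2.10-fold higher. Lgmn and Ctsl were again the lowest of the 25, together with Neu1 the only members below 0, at -0.54 (-0.93 to -0.12), -0.90 (-1.28 to -0.51) and -0.10 (-0.72 to 0.58). Ctsd, Lamp1, Hexa and Ctsa, at least 2-fold higher with shNS, had log2 ratios of 0.95, 0.31, 0.53 and 0.43.

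These ratios depend on what the counts are divided by. As CPM of all counts the log2 ratios of vesicles against cells were larger by 1.49 with shNS and 1.54 with the libraries labelled shDis3l2, because protein-coding genes take a larger share of vesicle libraries, and Ctsl with shNS was then at 0.26 in place of -1.24. On that scale 21 of 23 and 24 of 25 members were at least 2-fold higher in vesicles, beside 81.5% and 83.9% of all genes and medians of 2.27 and 2.50 for these. The distances between members and the median gene do not change with the scale.

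**Figure D2:**
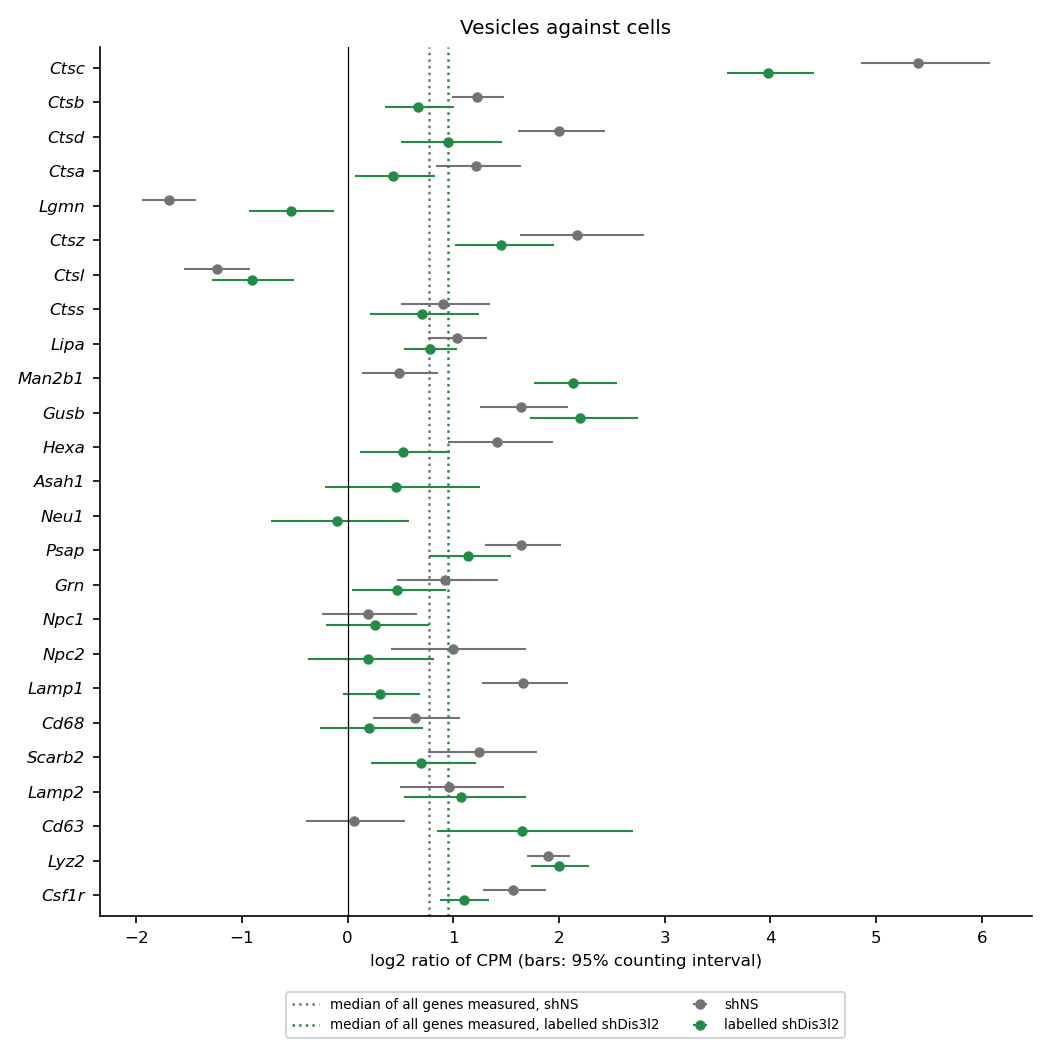
Log2 ratio of vesicles against cells in CPM for each member with at least 100 counts over the 2 libraries, with shNS (grey) and labelled shDis3l2 (green); bars are 95% exact counting intervals and dotted lines the medians of all measured genes, 0.77 and 0.95. Ctsc lies far to the right at 5.40 and 3.97, Lgmn and Ctsl lie left of 0 with both hairpins.

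The transcripts behind these counts differed between the compartments. In cells, 37.1% of the members' counts with shNS (95% interval 35 to 39.2) and 23.4% with the library labelled shDis3l2 (21.4 to 25.5) fell on transcripts that the annotation types as retained introns, that is, on forms in which an intron is left in place. In vesicles the shares were 5.76% (5.36 to 6.17) and 5.46% (5.04 to 5.90). Over all protein-coding genes they were 28.5% and 33% in cells and 21.7% and 20.8% in vesicles. With both libraries of a compartment summed, 22 members had such counts, the share was higher in cells in 19 and lower in 2, and Ctsh had only such counts in both. It was also higher in cells in 74.6% of 5337 genes that had such counts and at least 100 counts in all. The intervals of the 2 compartments did not overlap for 14 members with the higher share in cells and for 2 members, Grn and Csf1r, with the higher share in vesicles, beside 36.7% and 8.02% of 8140 genes with such counts and any count in each compartment. The minimum of 100 counts was not applied to these genes. Whether intervals overlap depends on how many counts a gene has, so the numbers of members cannot be read against these shares.

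Lgmn and Ctsl, the members that were lower in vesicles, were among the genes with the largest shift. Of the Lgmn counts, 85.9% in cells (81.9 to 89.3, over 368 counts) and 5.19% in vesicles (3.20 to 7.91, over 385 counts) were on a retained-intron transcript of 798 bases. It had 264 counts in cells with shNS and 51.9 in cells labelled shDis3l2, against 6.6 and 12.9 in vesicles, while the coding transcripts of 1990 and 1835 bases together had 23.3, 28.5, 224.2 and 140.9 in the same order. The retained-intron form holds a run of A whose 20-base stretch occurs in transcripts of 512 genes, and the part of pieces from other loci was not tested. Of the Ctsl counts, 77.1% in cells (71.5 to 82.0) and 19.9% in vesicles (15.7 to 24.7) were on retained-intron transcripts. A form of only 364 bases led them, with 133.6 and 68.8 counts in cells and 51.9 and 13.4 in vesicles. When only transcripts typed as protein-coding were counted, in genes and in the total, the log2 ratio of vesicles against cells with shNS was 1.43 for Lgmn and 0.059 for Ctsl in place of -1.69 and -1.24.

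Other members differed in the same way. Man2b1 had 69.4% of its counts on retained-intron transcripts in cells and 13.1% in vesicles, Npc1 64.1% and 9.45%, and Asah1 61.1% and 8.59%, the last over 36 counts in cells. Cd63 had 71.2% and 62.0%, with intervals that overlap. Lyz2, Ctsz and Hexa have 1 annotated transcript each and Lamp1 had under 1% of its counts on such forms, so the higher vesicle values of these 4 genes involve no choice of transcript. Salmon shares reads between overlapping transcripts by estimation, and short pieces often fit several, so the split between forms is less certain than a gene's sum.

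**Figure D3:**
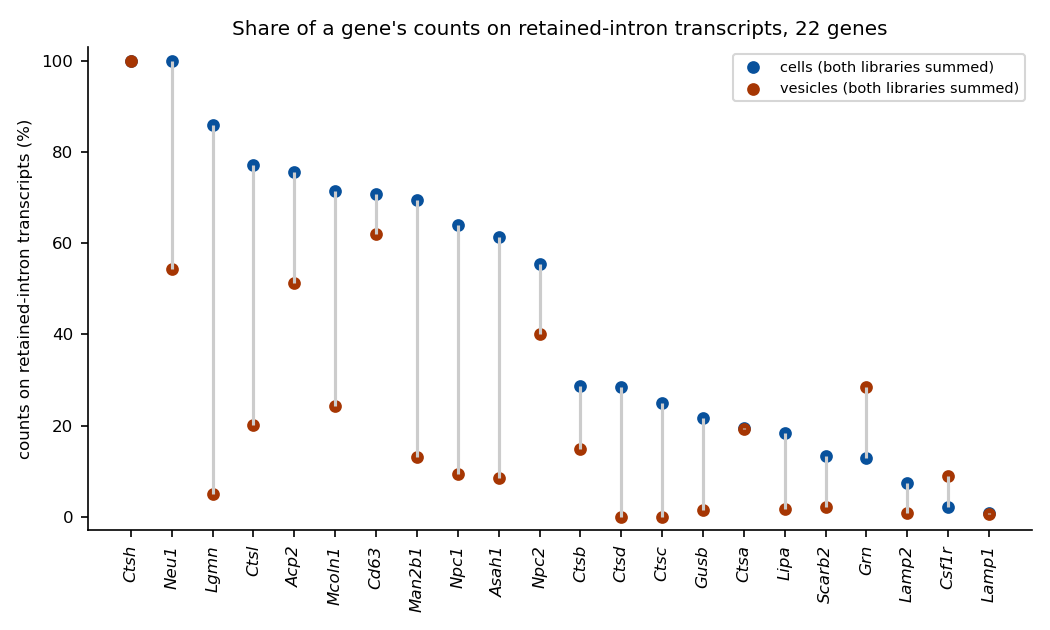
Percent of a gene's counts on retained-intron transcripts in cells (blue) and vesicles (red), both libraries of a compartment summed, for the 22 members with such counts. The blue point is the higher in 19 genes, with the widest gaps in Lgmn and Ctsl among others, and the red point is the higher in Grn and Csf1r.

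The excess of Ctsc in vesicles sat on 1 transcript. A coding form of 3220 bases, at chr7:88278134-88291397 on the plus strand (GRCm38), held 97.8% of the gene's counts: 9.2 and 33.7 in cells, but 2649.7 and 2208.3 in vesicles. It ends well before the gene, which spans chr7:88278085-88310888. The coding form of 2493 bases, which covers that whole span, held 5.7, 7.8, 33 and 43.2. At bases 2850 to 2869 the longer form holds an alternating run of C and A that, letter for letter, occurs in transcripts of 2025 genes, so pieces from other loci could be assigned to it. The 196 other genes that hold that stretch and had enough counts had a median log2 ratio of 0.59 for vesicles against cells with shNS, and the genes without it 0.78. The part of such pieces in the Ctsc values was not tested. Without all transcripts that hold any stretch of 20 bases found in 20 or more genes, an alternative added after the data were seen, 17 members could be measured and 16 of these were at least 2-fold higher in vesicles with shNS, beside 68.4% of 2630 genes. The medians were then 1.81 for the members and 1.56 for all genes. Lgmn and Ctsl, the members lower in vesicles with shNS, were not among the 17, with 0 and 8.7 counts left in cells with shNS. A member could again reach 100 counts through the vesicle library alone, so the 16 of 17 carries no weight of its own. Leading transcripts with such a stretch were found in 13 of the 33 members and in 49.5% of 8842 genes.

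A list of 36 further lysosomal enzymes and membrane proteins, 35 of which are in the table, was measured in the same way: with shNS, 7 of its 19 measured genes were at least 2-fold higher, with a median log2 ratio of 0.58, beside 41.9% and 0.77 for all genes. Its 2 genes with the most counts over the 4 libraries had a large excess. Vesicle counts made up almost all of these totals, so picking by counts favoured genes high in vesicles, and the excess carries no weight. Sgsh, a sulfatase that degrades heparan sulfate, had 22 and 28 counts in cells, against 5614 and 5142 in vesicles. Arsb, a sulfatase that acts on dermatan sulfate, had 27 and 46 counts in cells, against 3053 and 5104 in vesicles. In each, 1 transcript, typed as processed in Sgsh and as protein-coding in Arsb, held 98.8% and 99.8% of the counts. A single annotated form thus held almost all counts in Sgsh, Arsb and Ctsc, but also in Lamp1 (99.4%), Cd68 (97.7%) and Scarb2 (96.1%). The Arsb form holds a stretch of 20 bases found in 40 genes, and the Sgsh form holds none found in 20 or more.

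To ask whether the hairpin label went with a change of these mRNA pieces, the library labelled shDis3l2 was set against shNS within each compartment. Each of the 4 libraries also entered a comparison of compartments, so the ratios here and above share libraries. In vesicles nearly all members had a lower value in the library labelled shDis3l2. The largest differences were in the proteases Ctsd and Ctsb, followed by the membrane proteins Lamp1 and Cd68, by Lyz2 and by Ctss. The summed share was 1.54-fold lower (95% interval 1.50 to 1.57). Of 25 measured members 0 were at least 2-fold higher and 6 were at least 2-fold lower, beside 4.89% and 3.17% of 7194 genes, and 23 of 25 had a log2 ratio below 0. The median log2 ratio was -0.62 for the members and -0.07 for all genes, and 22 of the 25 members lay below the median gene.

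Ctsd was 3.04-fold lower with a log2 ratio of -1.6 (95% interval -1.83 to -1.39), from 587 counts to 245, and 99.3% of the measured genes lay above it. Ctsb was 2.85-fold lower with a log2 ratio of -1.51 (-1.68 to -1.35), from 956 counts to 426. Lamp1 was 2.11-fold, Cd68 2.10-fold, Lyz2 2.01-fold and Ctss 2.00-fold lower. Of these 6 genes, Lyz2, Ctss, Lamp1, Cd68 and Ctsd had no repeated stretch in their leading transcript. Close below the 2-fold mark were Psap at -0.93 (-1.12 to -0.75) and Lgmn at -0.93 (-1.23 to -0.63). Ctsc was at -0.60 (-0.68 to -0.52), a narrow interval owed to its 2684 and 2252 counts.

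Among the roles, the 8 measured proteases had a median of -0.82, the 5 measured membrane proteins -0.78, the 4 activators and carriers -0.59 and the 6 measured hydrolases of sugars, lipids and phosphates -0.25. The last group held the gene that went the other way: Man2b1 had 307 counts with shNS and 740 in the library labelled shDis3l2, a log2 ratio of 0.92 (0.73 to 1.12), under the 2-fold mark. Csf1r, made at the endoplasmic reticulum but placed at the cell surface, was at 0.08 (-0.05 to 0.22) and Neu1 at -0.01 (-0.51 to 0.51). Lipa at -0.21 (-0.36 to -0.06) and Gusb at -0.29 (-0.48 to -0.10) were nearer to the median gene. Differences between roles rest on few genes and were not tested.

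The distance of the members from the median gene, -0.55, is the same on every scale, whereas the count of members 2-fold apart is not. As CPM of all counts the median member was at -0.23 and the median gene at 0.32, with 2 members at least 2-fold lower, Ctsd and Ctsb, and 1 at least 2-fold higher, Man2b1, beside 1.18% and 8.72% of all genes. The distance was -0.53 with protein-coding transcripts only and -0.57 without transcripts that hold a repeated stretch. Other lists of genes were also below the median gene: the median was -0.33 for 42 cytosolic proteins made on free ribosomes, -0.26 for 29 genes of the translocation and folding machinery of the endoplasmic reticulum, -0.36 for 27 other lysosomal genes, -0.49 for 13 subunits of the proton pump and -0.29 for 27 other surface and secreted macrophage proteins. The 4 measured osteoclast markers outside the set also had a median of -0.62, with 2 at least 2-fold lower. A position below the median gene was therefore shared by lists with and without the secretory route. Of 27 other lysosomal genes 0 were at least 2-fold higher and 1 was at least 2-fold lower, and of 42 cytosolic genes 0 and 3.

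**Figure D4:**
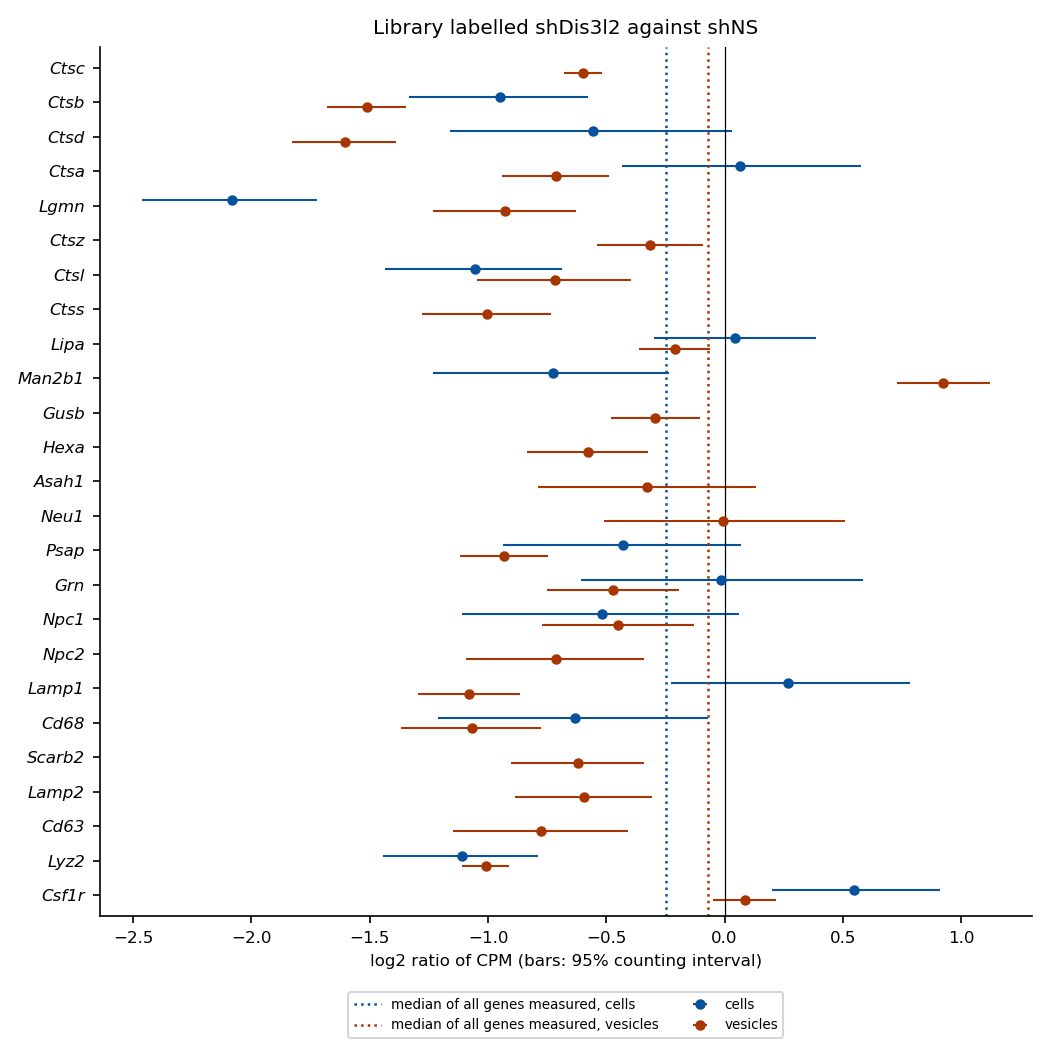
Log2 ratio of the library labelled shDis3l2 against shNS in CPM, in cells (blue) and vesicles (red), for members with at least 100 counts over the 2 libraries; bars are 95% exact counting intervals and dotted lines the medians of all measured genes, -0.25 and -0.07. In vesicles 23 of 25 points lie left of 0, with Man2b1 at 0.92 on the right; in cells Lgmn lies farthest left at -2.08.

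**Figure D5:**
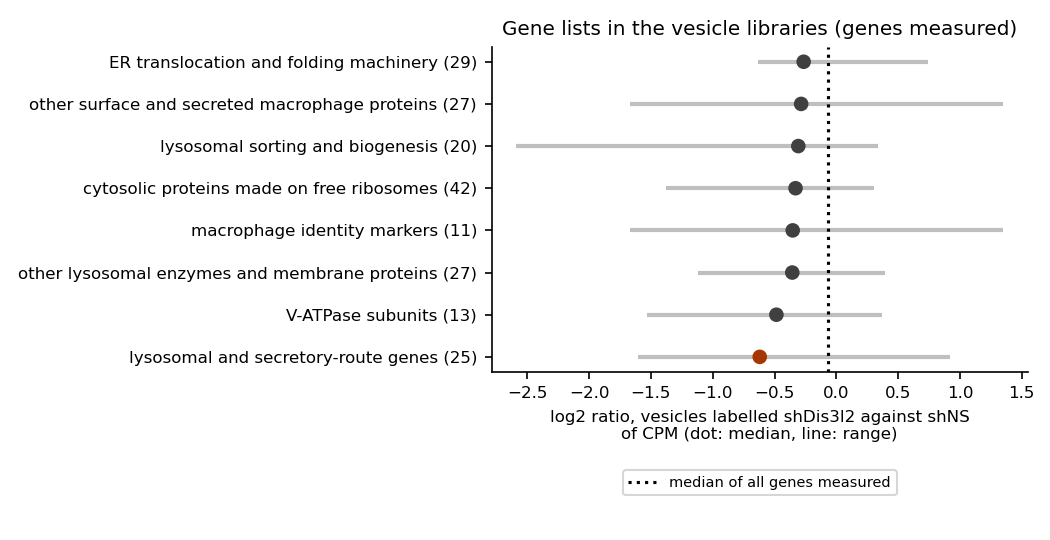
Median (dot) and range (line) of the log2 ratio of vesicles labelled shDis3l2 against vesicles with shNS for the 8 gene lists with at least 5 genes measured, with the number of genes measured in parentheses; the dotted line is the median of all genes, -0.07. The 25 members have the lowest median, -0.62, and every other list shown lies between it and the dotted line; Csf1r, Cd68 and Lyz2 are members and macrophage identity markers at once.

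In cells the same comparison could follow fewer genes. The counts on Dis3l2 do not show if its mRNA was lowered there, so each direction below holds for the libraries as labelled. With the label shDis3l2, the summed share of the 33 genes was 1.44-fold lower (95% interval 1.35 to 1.54). Of 14 measured members 0 were at least 2-fold higher and 3, Lgmn, Lyz2 and Ctsl, were at least 2-fold lower, beside 7.02% and 11% of 2308 genes. The median log2 ratio was -0.54 for the members and -0.25 for all genes. Lgmn was 4.23-fold lower with a log2 ratio of -2.08 (-2.46 to -1.73), from 287 counts to 80, and 99.1% of the measured genes lay above it. This drop was on the retained-intron form with the run of A, from 264 to 51.9, while the coding forms had 23.3 and 28.5. Lyz2 was 2.16-fold lower at -1.11 (-1.45 to -0.79) and Ctsl 2.08-fold lower at -1.05 (-1.44 to -0.69). Ctsb followed at -0.95 (-1.34 to -0.58). Csf1r was the highest member at 0.55 (0.20 to 0.91), and the other 9, Man2b1, Cd68, Ctsd, Npc1, Psap, Grn, Lipa, Ctsa and Lamp1, ranged from -0.73 to 0.27. With protein-coding transcripts only, 8 members could be measured, with a median of -0.27 beside -0.31 for all genes, so the distance from the median gene was 0.04 in place of -0.29, and 1 member was at least 2-fold lower beside 13.8% of 1278 genes. The other 19 members had too few counts in cells for a listing.

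The ratios in the 2 compartments were then compared gene by gene, with the cell libraries taken as labelled; were their labels exchanged, the cell ratios would change sign and the differences would take other values. Over 28 members with at least 100 counts in the 4 libraries, the log2 ratio in vesicles minus that in cells had a median of -0.36, and 0.16 over 8842 genes. Its interval lay below 0 for 8 members and above 0 for 3, beside 12.6% and 21% of all genes. The lowest were Ctsc at -1.43 (95% interval -2.12 to -0.73), Lamp1 at -1.35 (-1.87 to -0.82) and Ctsd at -1.05 (-1.65 to -0.45). The highest were Man2b1 at 1.65 (1.14 to 2.16), Cd63 at 1.59 (0.64 to 2.55) and Lgmn at 1.15 (0.69 to 1.61). In cells, retained-intron transcripts of Man2b1 had 71.5 counts with shNS and 28.3 in the library labelled shDis3l2, and its coding transcripts 6.8 and 32.0. For Lgmn these values were 264 and 51.9 on the retained-intron form and 23.3 and 28.5 on the coding forms. Lamp1 had 58 and 83 counts in cells and 479 and 288 in vesicles, while Lyz2, at -1.11 in cells and -1.01 in vesicles as labelled, had a difference of 0.10 (-0.23 to 0.44).

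A fit over all 4 libraries with terms for compartment and label leaves 1 residual degree of freedom and takes the label to act alike in cells and vesicles. In this edgeR quasi-likelihood fit, 4 of 28 members passed an adjusted p of 0.05 with higher values in vesicles: Ctsc (16.9-fold, adjusted p = 0.000133), Gusb (2.51-fold, 0.0173), Ctsz (2.31-fold, 0.0252) and Lyz2 (2.55-fold, 0.0446). The edgeR fit called 3 members lower in vesicles: Ctsl (3.19-fold, adjusted p = 0.00384), Lgmn (3.31-fold, 0.00798) and Mcoln1 (2.33-fold, 0.0475). Among all 8842 genes fitted the shares were 15.3% higher and 19.3% lower. For the label edgeR called 0 members in either direction, beside 0.0226% of genes higher and 0% lower, with 4 members lower and 0 higher at an unadjusted p under 0.05, beside 208 and 293 of the 8842 genes. DESeq2 also called 0 members for the label, beside 0.0113% of genes higher and 0% lower. At an unadjusted p under 0.05 DESeq2 had 3 members lower and 0 higher, beside 83 and 161 genes. For the compartment DESeq2 called Ctsc and Lyz2 higher and Lgmn and Ctsl lower, beside 10.1% and 14.5% of genes. With protein-coding transcripts only edgeR called Ctsc and Man2b1 higher and 0 members lower, beside 6.36% and 10.2% of 7091 genes.

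Proteins that enter the endoplasmic reticulum often start with a hydrophobic stretch, the core of a signal peptide, and the members were checked for it. In proteins translated from the GENCODE M21 coding sequences, 25 of 33 members had a window of 11 residues within the first 35 with a mean hydropathy of at least 2, against 4 of 43 genes for cytosolic proteins and 25.9% of 21421 genes. Among genes that were not members, the median label log2 ratio in vesicles was -0.06 for 957 genes with the stretch and -0.07 for 6196 genes without it. Genes with it were more spread, with 8.36% at least 2-fold higher and 4.91% lower, against 4.37% and 2.81% of genes without it. For vesicles against cells with shNS the medians were 0.91 for 761 genes and 0.76 for 4746 genes, and with the libraries labelled shDis3l2 they were 1.06 for 811 and 0.95 for 5146. In cells the label medians were -0.33 for 334 genes and -0.24 for 1943. The leading transcripts of the members had a median length of 2564 bases and 51.3% GC, against 3195 bases and 49.1% for 8842 genes. Across the 25 members measured in vesicles, Spearman's rho between the label ratio and transcript length was 0.39 and that with GC content 0.02, given as a description since all values come from the same pair of libraries.

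Many lysosomal genes carry the letters CACGTG, the core of the element bound by the TFEB family of transcription factors, near their start, so the promoters were searched for them. RefSeq promoter windows of GRCm38.p6, from 250 bases before the start to 50 after it, matched 27 of the 33 members. The 6 letters, which read alike on both strands, were found in 8 of 27 members, Ctsa, Ctsd, Ctsl, Gaa, Glb1, Lamp1, Lgmn and Mcoln1, and in 8.09% of 27025 genes. The longer form CACGTGA or its reverse TCACGTG, which overlaps with the first by its definition, was found in 7 of 27 members and in 4.29% of genes. A match is a description of the letters and no sign of binding. The following 30-base windows, in capitals the 6 letters, belong to members that were at least 2-fold apart in a ratio of 2 libraries above and are read 5′ to 3′ on the strand of the gene.
Lamp1, chr8:13159088-13159117, plus strand, 61 bases before the start: agggcaagatatCACGTGgtccagcgccca
Lgmn, chr12:102439124-102439153, minus strand, 49 bases before the start: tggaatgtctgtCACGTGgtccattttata
Ctsd, chr7:142388048-142388077, minus strand, 245 bases before the start: tccccCACGTGacctgtatccagtcattct
Ctsa, chr2:164833749-164833778, plus strand, 12 bases before the start: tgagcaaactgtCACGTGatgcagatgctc
Ctsl, chr13:64370739-64370768, minus strand, 236 bases before the start: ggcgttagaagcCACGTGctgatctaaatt
The letters lie within 61 bases of the start in Lamp1, Lgmn and Ctsa and far upstream in Ctsd and Ctsl, and Ctsl has the 6 letters without the A of the longer form. In vesicles the 5 members with the letters and enough counts, Ctsd, Lamp1, Lgmn, Ctsl and Ctsa, had label log2 ratios from -1.6 to -0.71 with a median of -0.93, and the 16 measured members whose windows lack them ranged from -1.07 to 0.92 with a median of -0.60. The 4 measured members with no window, Asah1, Csf1r, Ctsb and Npc1, ranged from -1.51 to 0.08. This grouping was made after the ratios were known and was not tested.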

How the data were processed

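Small RNA of 4 libraries was analysed, 1 per group. Per the labels' protocols, a QIAseq kit for miRNA was used and reads had 50 nt. Per the submitters' processing notes, cutadapt, Salmon and Novoalign were used with GRCm38 and mm10; versions and settings are not given in the sources used here. For each transcript the table holds an estimated count made by the authors, and 6.56% of values above 0 were whole within 0.001. Transcripts were named from GENCODE M21, summed per gene and rounded. The 1448 features without a name in it, tRNAs among them, entered totals only.

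Ratios were taken of counts per 1000000 protein-coding counts (all transcripts of genes typed protein-coding), with a pseudocount of 0.5 and at least 100 counts over the 2 libraries, and have exact conditional (Clopper-Pearson) 95% intervals. Differences of ratios have Poisson intervals. With 1 library per group no p-value was computed for a single comparison. The additive fits used edgeR 4.0.16 (TMM, quasi-likelihood, Benjamini-Hochberg over all genes fitted) and DESeq2 1.42.0 in R 4.3.3, and were tested on simulated data, as was the listing of ratios. N-terminal hydropathy (Kyte-Doolittle) came from translated coding sequences, and promoters from RefSeq.

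The 33 members and all lists were chosen with earlier results of these data known. Values are given in full for the 10 most counted members, each member at least 2-fold apart in a comparison, and the 3 largest differences of label ratios in each direction. Alternatives were the scale (all counts, TMM, DESeq2 size factors, no small RNA host genes), the minimum (1, 20 or 1000 counts), a pseudocount of 5, protein-coding-typed transcripts only and, added after the data were seen, no transcripts with a repeated stretch and no Ctsc.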

Additional observations from a re-analysis of the deposited data

Results flagged for a closer look

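For 6 members the label ratio had opposite signs in the 2 compartments and the counting interval of the difference excluded 0; with 1 library per group the difference was not tested. The same held for 23.7% of 8842 genes, against 21.4% of 28 members. The cell directions are those of the labels, which the counts on Dis3l2 cannot check. In vesicles minus cells, the log2 difference was -1.43 for Ctsc, -1.35 for Lamp1, -0.89 for Hexa, -0.78 for Ctsa and -0.71 for Ctsz, which were above 0 in cells and below 0 in vesicles. It was 1.65 for Man2b1, which was below 0 in cells and above 0 in vesicles. In cells its retained-intron transcripts had 71.5 counts with shNS and 28.3 in the library labelled shDis3l2. Its coding transcripts had 6.8 and 32.0 in cells and 260.2 and 649.8 in vesicles, so the opposite sign was not seen on these. The cell values behind these 6 differences are small, from 24 to 84 counts in a library, and the interval for Ctsz reached -0.001. As CPM of all counts Ctsz was above 0 in both compartments, at 0.74 in cells and 0.08 in vesicles.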

How the results depend on the processing

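No paired analysis was possible because each group has 1 library and so no replicates to pair; the additive fit compares compartments within each hairpin. Changes of scale moved all genes together. As counts per 1000000 of all counts, the members' median was -0.23 for the label in vesicles, and for vesicles against cells 2.71 with shNS and 2.23 with the libraries labelled shDis3l2. On that scale 1 member was at least 2-fold lower for the label in cells, beside 4.29% of genes. For the label in vesicles 1 was higher and 2 were lower, beside 8.72% and 1.18%. For vesicles against cells with shNS, 21 were higher and 0 lower, beside 81.5% and 6.78%. With the libraries labelled shDis3l2, 24 were higher, beside 83.9%. With TMM, 1 member was lower for the label in cells, beside 5.24% of genes. In vesicles 1 was higher and 2 were lower, beside 6.02% and 2.15%. DESeq2 size factors gave the same numbers of members, beside 5.29%, 6.16% and 2.07% of genes. Without small RNA host genes in the total, the medians of vesicles against cells were 0.78 and 0.25, with 8 members higher with shNS and 1 lower with the libraries labelled shDis3l2, beside 29.5% and 15.9% of genes. With a minimum of 1 count, 1 member was higher and 5 were lower for the label in cells, beside 4.95% and 13% of genes. In vesicles 1 was higher with a minimum of 1 and of 20, beside 4.39% and 5.09%. With a minimum of 1000 no member could be measured for the label in cells, and 2 were lower for the label in vesicles, beside 3.88% of genes. For vesicles against cells the medians of 3 members were 1.9 and 2.00. All 3 were higher with each hairpin, beside 68.9% and 73.4% of genes, and 0 were lower with shNS, beside 20.8%. With protein-coding-typed transcripts only, 1 member was lower for the label in cells, beside 13.8% of genes. For vesicles against cells with shNS 0 were lower, beside 12.5%. Without transcripts that hold a repeated stretch, 1 was lower for the label in cells, beside 10.8% of genes. For vesicles against cells 0 were lower with shNS, beside 9.51%, and the medians were 1.81 and 1.35. Lgmn and Ctsl kept too few counts to be measured in that setting. The causes were not tested beyond the counts that each setting leaves. A direction was reversed for Ctsl with shNS, at 0.26 on the scale of all counts and 0.059 with protein-coding-typed transcripts, and for Lgmn, at 1.43 with the latter. Of 402 alternative log2 ratios of the 20 members given in full, 271 lay within the interval of the reported value, 128 moved beyond it and 3 were reversed. In the additive fit the members higher in vesicles numbered 2 with DESeq2, 11 with protein-coding totals in place of TMM, 11 with a minimum of 1 count and 2 with protein-coding-typed transcripts, where 0 were lower; the shares of genes higher were 10.1%, 35.8%, 15.7% and 6.36%. For the label in vesicles the members' median lay below that of all genes by 0.44 to 0.73 in every setting run. For vesicles against cells the members stood above or below the median gene depending on the minimum: by 0.44 with 100 counts, 0.80 with 20, 1.12 with 1 and -0.85 with 1000 for shNS, and by -0.26, 0.31, 0.57 and -1.02 for the libraries labelled shDis3l2. In cells 19 members had under 100 counts over the 2 libraries, whose totals were the larger ones but only 7.03% and 8.92% protein-coding.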

Other observations

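Genes known from osteoclasts, the bone-resorbing cells that RAW264.7 can form, had few counts in these libraries. The members Acp5, Ctsk and Atp6v0d2 had 3 to 11 counts per library, and 8 osteoclast markers that are not members had 158 and 157 counts in cells and 515 and 485 in vesicles.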
